A study of Rattus norvegicus with 30 samples.

Results

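Genes that bring thyroid hormone to liver cells, bind it, convert it or answer to it were followed over 30 liver arrays. There are 8 of them: Slc16a10, Dio1, Crym, Ttr, Serpina7, Thra, Thrb and Klf9. They were chosen by name, with earlier results of these data known, and their probes were found through the transcript each probe was designed to. A probe was matched for 7 of the 8 genes, 1 probe each, out of 26912 genes or unnamed transcripts on the array, of which 15170 are named genes. Serpina7, which encodes thyroxine-binding globulin, matched no probe and is not analysed here.

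All liver RNA came from males, and the labels call the arrays of a group biological replicates without saying whether livers were pooled. Rats of the outbred stock Crl:CD(SD), SD rats from here on, gave 4 arrays on control diet (0 ppm) and 4 on a diet with 1000 ppm phenobarbital (PB). CAR KO rats, which lack the constitutive androstane receptor encoded by Nr1i3, gave 4 on each diet. Chimeric mice, whose livers carry rat hepatocytes beside the cells the mouse host still has, gave 7 on each diet. The diets were fed for 7 days, and age, host strain and the deleted part of Nr1i3 are not given in the sources used here. The series title names the aim as a comparison of the hepatic effects of PB between animal models.

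Thyroid hormone reaches the liver bound to plasma proteins, crosses the hepatocyte membrane through carriers, and is converted by deiodinases that need selenium. Inside the cell it binds nuclear receptors, which raise or lower target genes together with the retinoid X receptors. The liver also clears the hormone by glucuronidation, sulfation and export into bile. The barbiturate PB induces many enzymes of drug metabolism, in large part through CAR, and some of those enzymes conjugate thyroxine.

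Levels below are log2 of the scanner signal minus the 75th percentile of that array, so 0 is the brightness below which 75% of the probes of that array lie. Errors of levels are SDs between arrays and those of differences are standard errors of the limma fit. A gene passed the test where limma's p, adjusted by the Benjamini-Hochberg method over every gene tested in that comparison, was under 0.05. The 75th percentile signal ranged from 413.8 to 459.6 on SD arrays, from 441.1 to 568.3 on CAR KO arrays and from 197.5 to 317.9 on chimeric arrays. Pairs of arrays within a group correlated across probes at 0.9751 or above. All 10 hepatocyte markers (among them Alb, Apoa1 and Hnf4a) were well above background on every array. Cyp2b2, a P450 gene that PB raises through CAR, rose by 4.03 ± 0.138 on the log2 scale in SD rats (adjusted p = 7.64e-10) and by 5.81 ± 0.264 in chimeric mice, and stood at -0.09 ± 0.138 in CAR KO rats (adjusted p = 0.803). Nr1i3 itself differed by -0.05 ± 0.304 between CAR KO and SD controls. Where its probe lies relative to the deletion is unknown, so that value checks nothing. SD arrays shared 1 slide and CAR KO arrays another, with each diet in its own row, so model and slide, and within a rat model diet and row, cannot be told apart.

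The levels of all 7 measured genes on every array are plotted first.

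**Figure D1:**
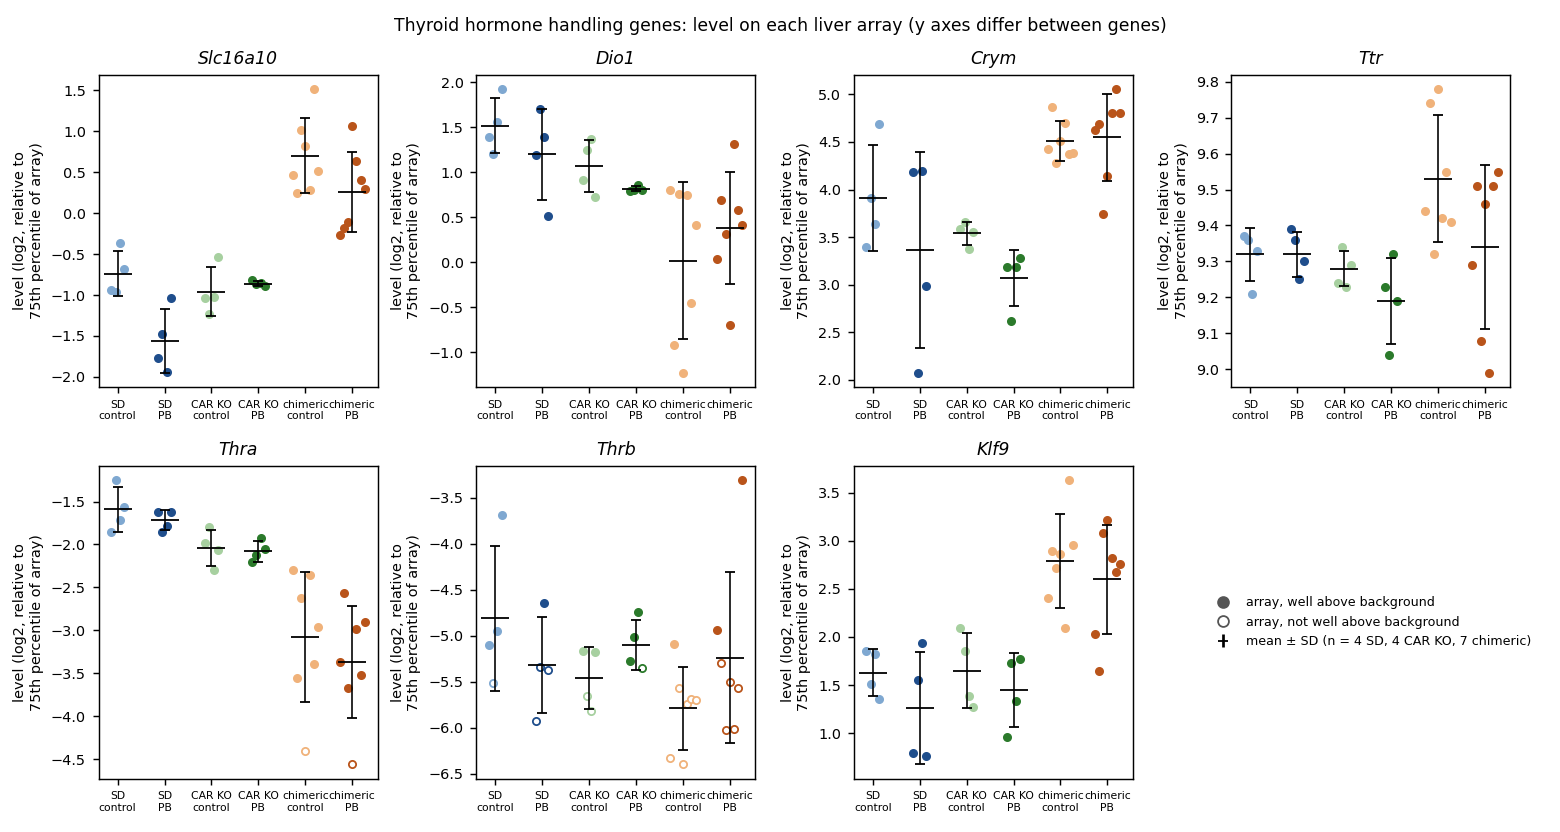
Level of each gene (log2, relative to the 75th percentile of the array) on each array of SD rats (4 per diet), CAR KO rats (4 per diet) and chimeric mice (7 per diet), with the mean ± SD. Filled points were well above background. Slc16a10 on PB was lower than on control diet in SD rats, with no overlap of arrays, and Dio1 and Thra on control diet lay lower in chimeric mice than in SD rats.

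Slc16a10 encodes a membrane carrier of aromatic amino acids that also carries thyroid hormones. It was the gene of the 7 that changed on PB, and it fell in SD rats. On control diet the 4 SD arrays stood at -0.94, -0.96, -0.37 and -0.68, and on PB at -1.77, -1.48, -1.94 and -1.04. Every PB array lay below every control array. The difference was -0.82 ± 0.188 on the log2 scale, a level 0.566 times that of controls (limma, adjusted p = 0.0256, lower in 4 of 4 PB arrays).

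In CAR KO rats the control arrays stood at -1.04, -1.23, -1.03 and -0.54 and the PB arrays at -0.82, -0.87, -0.85 and -0.89. The groups overlapped, and the PB arrays lay within a narrow band inside the range of the controls. The difference was 0.10 ± 0.188 (95% confidence interval -0.3 to 0.51, adjusted p = 0.835). The response of CAR KO rats minus that of SD rats was 0.92 ± 0.267 (95% interval 0.35 to 1.5). With limma's adjusted p of 0.16 that difference in response did not pass.

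In chimeric mice Slc16a10 had a lowest level of 0.25, a median of 0.52 and a highest of 1.52 on control diet, and -0.27, 0.29 and 1.06 on PB. The groups overlapped, and the difference of -0.43 ± 0.236 did not pass (95% interval -0.93 to 0.07, adjusted p = 0.153).

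The call in SD rats did not hold under every choice. The adjusted p was 0.114 when only SD arrays entered the fit and 0.191 when all 30 arrays did. Without SD control 3 it was 0.0628, without SD control 4 0.0601, without SD PB 1 0.0674 and without SD PB 3 0.076, with differences from -0.8 to -0.69.

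The bases upstream of Slc16a10, Dio1 and Klf9 are shown as examples of a carrier, an enzyme and a target of the hormone, each with a called difference in at least 1 comparison. Thra, which also had called differences, has 2 entries in the table and is not shown. Each run holds the 250 bases before the start site, on the gene's strand, from RefSeq's promoter table for rat build GRCr8, which had an entry for 7 of the 8 genes (none for Crym). Capitals mark AGGTCA, the half-site that thyroid hormone receptors and CAR can bind, GGGCGG, the core of a GC box, and CCAAT, each searched on both strands.
Slc16a10: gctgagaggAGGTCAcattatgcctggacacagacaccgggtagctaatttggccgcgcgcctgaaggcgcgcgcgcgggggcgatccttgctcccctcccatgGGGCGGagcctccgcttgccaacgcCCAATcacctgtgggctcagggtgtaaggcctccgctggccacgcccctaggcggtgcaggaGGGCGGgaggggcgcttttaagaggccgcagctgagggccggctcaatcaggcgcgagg
Dio1: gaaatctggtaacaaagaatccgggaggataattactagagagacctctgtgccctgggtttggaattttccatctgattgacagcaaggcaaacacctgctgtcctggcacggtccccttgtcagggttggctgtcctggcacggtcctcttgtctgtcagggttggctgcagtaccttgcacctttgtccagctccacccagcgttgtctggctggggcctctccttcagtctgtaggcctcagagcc
Klf9: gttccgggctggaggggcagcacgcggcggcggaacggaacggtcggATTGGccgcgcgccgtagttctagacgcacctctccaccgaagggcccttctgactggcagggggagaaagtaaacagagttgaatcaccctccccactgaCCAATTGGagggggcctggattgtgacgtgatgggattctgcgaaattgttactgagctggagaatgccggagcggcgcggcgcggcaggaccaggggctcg

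The run of Slc16a10 is chr20:45122359-45122608 on the minus strand, that of Dio1 chr5:127319785-127320034 on the minus strand, and that of Klf9 chr1:230126396-230126645 on the plus strand. Slc16a10 has AGGTCA once, 241 bases before its start, as do 14.1% of 33469 promoter windows of the same length at least once. It also has GGGCGG at 2 places (in 30.5% of windows) and CCAAT once (in 34.0%). Klf9 has CCAAT at 3 places counting both strands, 2 of them overlapping, and the Dio1 run has none of the 3 motifs. A direct repeat of the half-site with 4 bases between the copies occurs in no window of these genes and in 1 of the 33469. The share of G and C was 68.4% for Slc16a10, 63.6% for Klf9 and 55.2% for Dio1, against a median of 51.2% over all windows. These matches are descriptions of the letters only.

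Dio1 encodes type 1 deiodinase, the liver enzyme that removes iodine from thyroxine to give the active hormone and also breaks down inactive forms. On control diet the SD arrays stood at 1.39, 1.2, 1.56 and 1.93, and on PB at 1.19, 1.71, 1.39 and 0.52. These ranges overlapped, with SD PB 4 lowest, and the difference of -0.32 ± 0.218 did not pass (95% interval -0.79 to 0.15, adjusted p = 0.447). CAR KO controls stood at 0.92, 1.25, 1.37 and 0.73, and the CAR KO PB arrays at 0.79, 0.81, 0.86 and 0.8. Here too the ranges overlapped, and the difference of -0.25 ± 0.219 did not pass (adjusted p = 0.611). In chimeric mice the lowest, median and highest levels were -1.23, 0.41 and 0.81 on control diet and -0.7, 0.42 and 1.32 on PB, a difference of 0.36 ± 0.365 that did not pass (95% interval -0.41 to 1.14, adjusted p = 0.444).

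Crym encodes mu-crystallin, a protein of the cytosol that binds triiodothyronine. The SD controls stood at 3.4, 3.91, 3.64 and 4.69 and the SD PB arrays at 4.18, 2.07, 4.19 and 2.99. The groups overlapped, with SD PB 2 and SD PB 4 below all controls, and the difference of -0.55 ± 0.397 did not pass (adjusted p = 0.472). CAR KO controls stood at 3.59, 3.66, 3.37 and 3.55 and CAR KO PB arrays at 3.18, 2.62, 3.18 and 3.28. All 4 PB arrays lay below all 4 controls, but limma's fit gave -0.48 ± 0.398 with an adjusted p of 0.595. Among all genes tested in CAR KO rats, 10.8% had groups that did not overlap. In chimeric mice the difference was 0.05 ± 0.183 (95% interval -0.34 to 0.44, adjusted p = 0.85).

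Ttr encodes transthyretin, a plasma carrier of thyroxine made by hepatocytes. Its probe was at levels between 8.99 and 9.78 on every array, and no spot of it was saturated. The 6 group means ran from 9.19 to 9.53. The difference on PB was 0.00 ± 0.0655 in SD rats (95% interval -0.14 to 0.14), -0.08 ± 0.0657 in CAR KO rats (-0.22 to 0.06) and -0.18 ± 0.12 in chimeric mice (-0.44 to 0.07). None of the 3 passed by limma (0 at an unadjusted p under 0.05), and the SD interval is the narrowest of the 7 genes in that comparison.

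Thra and Thrb encode the nuclear receptors of the hormone, and Thrb is the form known to predominate in liver. Thra levels on SD control arrays were -1.86, -1.25, -1.71 and -1.56, and on PB -1.62, -1.85, -1.78 and -1.62, with overlap (difference -0.13 ± 0.128, adjusted p = 0.627). In CAR KO rats the PB difference was -0.04 ± 0.129 (adjusted p = 0.914) and in chimeric mice -0.28 ± 0.343 (adjusted p = 0.527). The Thrb probe was close to background: it was well above background on 3 of 4 SD controls, 1 of 4 SD PB arrays, 2 of 4 CAR KO controls, 3 of 4 CAR KO PB arrays, 1 of 7 chimeric controls and 2 of 7 chimeric PB arrays. On PB it differed by -0.51 ± 0.34 in SD rats (adjusted p = 0.437) and, in CAR KO rats, by 0.36 ± 0.341 (adjusted p = 0.642). Those values include arrays where Thrb was not measured well above background, and the gene was not tested on PB in chimeric mice. Brightness differs between probes, so the level of Thrb is not set against that of Thra.

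Klf9 encodes a transcription factor that is a direct target of thyroid hormone receptors and of the glucocorticoid receptor. SD controls stood at 1.85, 1.51, 1.82 and 1.36, and SD PB arrays at 0.79, 1.55, 1.94 and 0.76. The SD groups overlapped, with 2 PB arrays below all controls, and the difference of -0.37 ± 0.274 did not pass (95% interval -0.96 to 0.21, adjusted p = 0.479). In CAR KO rats it was -0.20 ± 0.275 (adjusted p = 0.763) and in chimeric mice -0.19 ± 0.26 (adjusted p = 0.584).

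Counted together, 1 of the 7 genes changed on PB in SD rats (limma), where 4.3% of 17009 genes tested did (2.5% higher, 1.8% lower). Its groups did not overlap, as was so for 11.7% of all genes. The median difference of the 7 was -0.37, against -0.02 over all genes tested. In CAR KO rats none of the 7 passed (0 at an unadjusted p under 0.05), where 0.205% of all genes did (0.0513% higher, 0.154% lower). In chimeric mice none of 6 tested passed (0 at an unadjusted p under 0.05), where 42.7% of 14445 genes did (19.3% higher, 23.4% lower). In none of them were the groups apart, as they were for 12.7% of all genes, and the median difference of the 6 was -0.18 against 0.06 over all genes. Between CAR KO and SD rats none of the 7 responses differed by limma's adjusted p (1 at an unadjusted p under 0.05, Slc16a10), where 0.533% of all genes did (0.107% higher, 0.427% lower). Between chimeric mice and SD rats none of the 7 did (0 at an unadjusted p under 0.05), where 18.9% of all genes did (6.29% higher, 12.6% lower). With slide as a block that share was 0.185% (32 genes) in place of 18.9%.

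The chimeric PB arrays lay on another slide than the controls, apart from chimeric PB 1. On the slide they share, PB 1 against the 7 controls gave -0.96 for Slc16a10, -0.76 for Klf9, -0.29 for Thra, -0.23 for Ttr, 0.12 for Crym and 0.02 for Dio1, none past the threshold with slide as a block. With that block 158 of the 14445 genes tested were called, against 6168 without it.

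**Figure D2:**
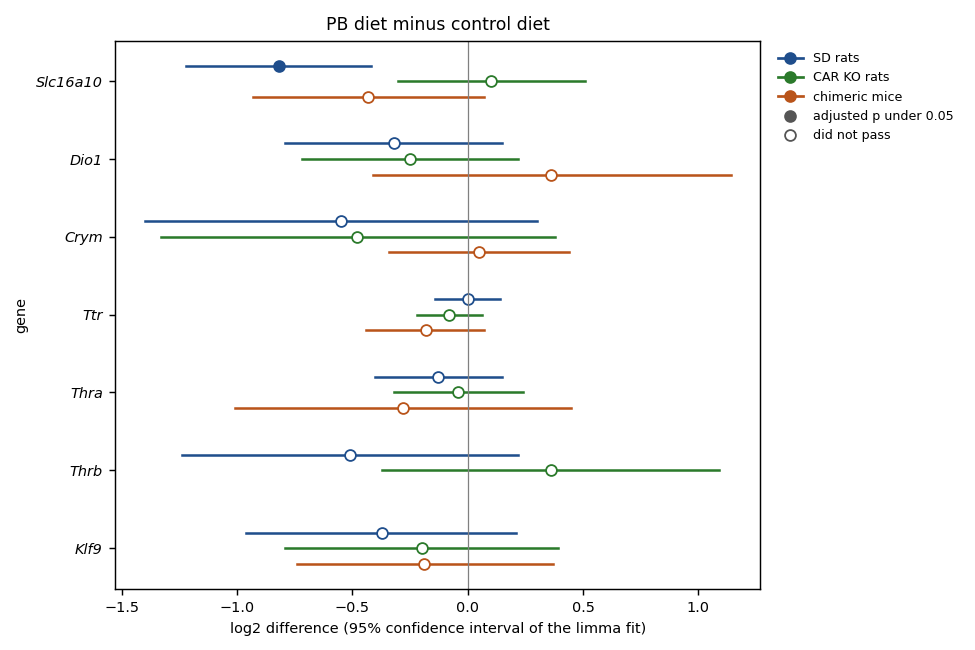
Difference between PB and control diet (log2) for each gene in SD rats, CAR KO rats and chimeric mice, with 95% confidence intervals from limma. Filled points had an adjusted p under 0.05, which was Slc16a10 in SD rats (-0.82), and Thrb was not tested in chimeric mice.

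Between CAR KO and SD rats on the same diet, 2 of the 7 genes differed. Thra was lower in CAR KO rats on control diet by -0.44 ± 0.129 (0.737 times the SD level, adjusted p = 0.0165), with CAR KO controls at -1.98, -1.8, -2.3 and -2.06. The control groups overlapped, since the highest CAR KO array lay above the lowest SD array. On PB Thra was lower by -0.36 ± 0.128 (adjusted p = 0.0376), with CAR KO arrays at -2.21, -2.12, -1.92 and -2.05, all below the SD arrays. The control call rests on CAR KO control 3, without which the adjusted p was 0.0514, and it was 0.0565 when only the arrays compared were fitted and 0.478 when all 30 arrays were. The PB call was lost in 6 of the 8 fits that left out an array, with adjusted p from 0.0329 to 0.094.

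Slc16a10 on PB was higher in CAR KO than in SD rats by 0.70 ± 0.188 (1.63-fold, adjusted p = 0.00813), with no overlap of arrays. It passed in each of the 8 fits that left out an array (adjusted p at most 0.0275), and the adjusted p was 0.0686 when all 30 arrays were fitted. On control diet it differed by -0.22 ± 0.189 (adjusted p = 0.386). Dio1 differed by -0.46 ± 0.219 on control diet (adjusted p = 0.125) and by -0.39 ± 0.218 on PB (adjusted p = 0.169), and Crym, Ttr, Thrb and Klf9 passed on neither diet. In all, 1 of 7 passed on control diet, where 34.1% of 17724 genes did (14.4% higher, 19.7% lower), and 2 of 7 on PB, where 42.1% of 16582 did (16.9% higher, 25.1% lower). The groups of 0 of the 7 were apart on control diet and of 2 on PB, against 34.3% and 38.9% of all genes. Neither share of the 7 genes lay above that of all genes.

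Between chimeric mice and SD rats most genes on the array differed, 74.6% of 17160 tested on control diet and 72.7% of 15803 on PB. By direction these were 38.7% higher and 35.9% lower on control diet, and 38.8% and 33.9% on PB. Of the 7 genes 5 passed on control diet, 2 higher and 3 lower, and 5 of 6 tested on PB, 3 higher and 2 lower. Groups were apart for 4 of 7 and 2 of 6 genes, against 60.9% and 54.1% of all genes. Those shares are near the ones over all genes and are no result about the 7. Scaling to each array's median instead of its 75th percentile moves the median difference of all genes between chimeric mice and SD rats up by 0.4 on control diet and by 0.68 on PB.

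The carrier Slc16a10 was higher in chimeric livers by 1.43 ± 0.236 on control diet (2.7-fold, adjusted p = 5.81e-06) and by 1.82 ± 0.236 on PB (3.53-fold, adjusted p = 1.21e-07). All chimeric arrays lay above all SD arrays on each diet. Klf9 was higher by 1.16 ± 0.285 on control diet (2.23-fold, adjusted p = 0.000751) and by 1.34 ± 0.285 on PB (adjusted p = 0.000144). Its lowest, median and highest chimeric levels were 2.09, 2.86 and 3.63 on control diet, above all SD controls, and 1.65, 2.76 and 3.21 on PB, where the groups overlapped. Crym was higher by 1.19 ± 0.298 on PB (2.29-fold, adjusted p = 0.000835), with chimeric levels from 3.74 to 5.06 and a median of 4.69. On control diet Crym differed by 0.60 ± 0.299 (adjusted p = 0.0731). With quantile normalization the PB difference of Crym was 0.63 (adjusted p = 0.0697). Scaled to the array median, the PB differences were 2.5 for Slc16a10, 2.02 for Klf9 and 1.87 for Crym.

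Dio1 was lower in chimeric livers on control diet by -1.50 ± 0.349, 0.352 times the SD level (adjusted p = 0.000397), with no overlap of arrays. Thra was lower by -1.49 ± 0.31 on control diet (0.356 times, adjusted p = 0.00012) and by -1.65 ± 0.31 on PB (0.319 times, adjusted p = 3.26e-05). Its lowest, median and highest chimeric levels were -4.41, -2.96 and -2.3 on control diet and -4.56, -3.37 and -2.57 on PB, all below the SD arrays. With normexp background correction these differences were -0.51 (adjusted p = 4.65e-05) and -0.50 (adjusted p = 6.02e-05), so their direction and call held and their size did not. That correction adds an offset of 50 to each signal, which makes differences of dim probes smaller. The mean Thra signals were 38.5 in chimeric controls and 27.1 on chimeric PB. In both diet groups 6 of 7 chimeric arrays had Thra well above background. Thrb on control diet passed at -0.98 ± 0.379 (adjusted p = 0.0228), but only 1 of 7 chimeric arrays measured it well above background, so no fold is given. With normexp background correction its difference was 0.34. The offset of 50 lies above the highest Thrb signal (32.07, on SD control 4), so neither sign is taken as a result.

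Dio1 on PB was lower by -0.82 ± 0.348 (adjusted p = 0.0362), and this call changed with the choices made. The difference was -0.14 (adjusted p = 0.702) when arrays were scaled to their median. Without chimeric PB 1 the adjusted p was 0.0597, without chimeric PB 4 0.0879, without SD PB 1 0.0612, without SD PB 2 0.13 and without SD PB 3 0.0836. The lowest Dio1 levels among chimeric arrays were on control 4 (-1.23), control 2 (-0.92) and PB 4 (-0.7), whose 75th percentile signals, 215.8, 235.2 and 197.5, were among the lowest of the chimeric arrays. Chimeric PB 7 (221.2) and PB 6 (236.5) were also dim and had Dio1 levels of 0.42 and 0.58. The part of array signal in these levels was not tested. Without the dimmest array of each diet, an alternative chosen after seeing the array signals, the control diet difference was -1.30 (adjusted p = 0.000352) and the PB difference -0.64 (adjusted p = 0.0517). Ttr did not pass on either diet: it differed by 0.21 ± 0.105 on control diet (adjusted p = 0.0788) and by 0.02 ± 0.105 on PB. Scaled to the array median, Ttr was higher by 0.61 and 0.7 (adjusted p = 0.000138 and 1.83e-05).

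Markers of liver cell types moved with both comparisons between models. Summed levels of 10 macrophage markers (on a linear scale, in multiples of the array's 75th percentile) ranged from 29.3 to 34.5 in chimeric controls and from 68.2 to 79 in SD controls, and Marco was not well above background on any chimeric array. The sums of 10 stellate markers were 4.95 to 7.26 against 15.9 to 23.1, and those of 5 endothelial markers 16.6 to 25.1 against 25.8 to 29.6, with Tek not well above background on any chimeric array. The sums of 6 lymphocyte markers were 0.175 to 0.273 against 1.12 to 1.53. Lyz2 among the macrophage markers and Pecam1 among the endothelial markers did not pass by limma. Hepatocyte sums were 2780 to 3000 against 2960 to 3240. Of the hepatocyte markers Cps1, Apoa1, Serpina1, Hnf4a and Ahsg were lower by limma, and Arg1 and Fgb were higher. Sums of 5 cholangiocyte markers were higher, at 1.7 to 3.16 against 0.824 to 1.56, but the single markers went both ways by limma. Spp1 (17.1-fold) and Krt7 (1.92-fold) were higher, and Epcam (0.276 times), Krt19 and Cftr were lower. Krt19 was not well above background on any chimeric array, and Cftr was so on 1 of 7 chimeric controls. By limma 4 of 10 stellate markers were higher on control diet, among them Dcn, Col1a1 and Rgs5, and 6 were lower. Over all genes 38.7% were higher and 35.9% lower in that comparison.

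In CAR KO controls the hepatocyte sums were 2530 to 2650, against 2960 to 3240 in SD controls. There 5 of 10 hepatocyte markers were lower by limma, where 19.7% of all genes were lower and 14.4% higher. Macrophage sums were 45.7 to 77.6 against 68.2 to 79, with 3 of 10 markers lower (Vsig4, C1qa and Clec4f), not far from the share of all genes. Of the 10 stellate markers 3 were lower, Rgs5 among them, and 1 was higher, again not far from the shares of all genes. Of the cholangiocyte markers only Spp1 passed, and it was lower. Only 2 of 4 CAR KO controls measured Spp1 well above background, so no fold is given. On PB the hepatocyte sums were 2410 to 2690 in CAR KO rats and 2780 to 2900 in SD rats, and the macrophage sums 37.1 to 61.6 and 69 to 77.7. Of the hepatocyte markers only Serpina1 and Arg1 passed by limma on PB, both lower, where 25.1% of all genes were lower. Fewer cells of a type and less RNA per cell cannot be told apart in bulk RNA, and the part of these cells, or of mouse RNA binding rat probes, in the differences above was not tested.

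**Figure D3:**
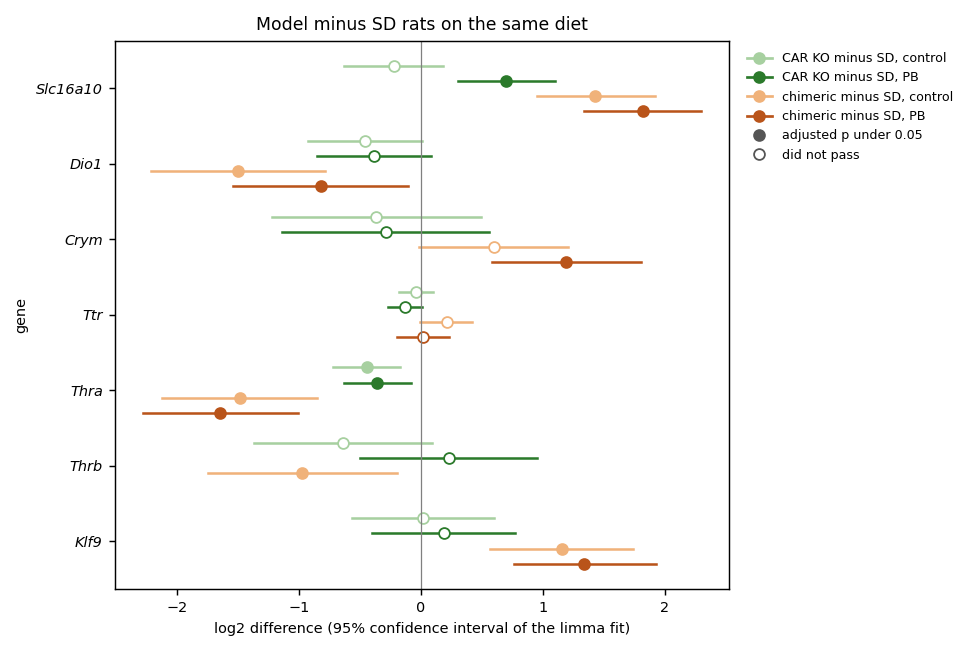
Difference from SD rats on the same diet (log2) for each gene in CAR KO rats and in chimeric mice, with 95% confidence intervals from limma. Filled points had an adjusted p under 0.05, and the largest were Slc16a10 on PB (1.82) and Thra on PB (-1.65), both in chimeric mice.

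By order of level, Slc16a10 went from chimeric controls (0.70 ± 0.4596) through chimeric PB (0.26 ± 0.4861), SD controls (-0.74 ± 0.2755), CAR KO PB (-0.86 ± 0.03094) and CAR KO controls (-0.96 ± 0.2971) to SD PB (-1.56 ± 0.3928). Chimeric PB and SD controls were the only neighbours in that order whose arrays did not overlap. Dio1 went from SD controls (1.52 ± 0.3093) through SD PB (1.2 ± 0.5035), CAR KO controls (1.07 ± 0.2926), CAR KO PB (0.82 ± 0.0283) and chimeric PB (0.38 ± 0.6209) to chimeric controls (0.02 ± 0.869), with overlap between each pair of neighbours. Thra ran from SD controls (-1.59 ± 0.2633), SD PB (-1.72 ± 0.1166), CAR KO controls (-2.04 ± 0.2072) and CAR KO PB (-2.08 ± 0.1231) to chimeric controls (-3.08 ± 0.76) and chimeric PB (-3.37 ± 0.6491), with a gap between CAR KO PB and chimeric controls.

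For 5 of the genes, whose 6 group means span at least 1 on the log2 scale, the genes with the most similar pattern were found among 8771 named genes. Likeness is the root mean square difference of the 6 centred group means, a description over 6 points. Dio1 lay nearest Igfbp3 (0.065), Qki (0.082) and Pik3c3 (0.086). Thra lay nearest Hip1 (0.049), Ccdc102a (0.075) and Rab17 (0.078), and Klf9 nearest Slc37a4 (0.052), Sh3bp4 (0.074) and Fbxl17 (0.084). Slc16a10 lay nearest Casp6 (0.119), Klf11 (0.122) and Cyp2e1 (0.141), and Crym nearest Wasl (0.128), Hsf2 (0.133) and Il6r (0.134).

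Other genes of the pathway were counted from lists of hormone genes. Of 10 tested genes for conjugation and export, 5 rose and 0 fell on PB in SD rats, where 2.5% of all genes rose and 1.8% fell, with a median difference of 0.72 against -0.02 over all genes. Ugt2b1, a glucuronosyltransferase, rose by 3.23 ± 0.405 (9.35-fold, adjusted p = 0.000466). Abcc3, an export pump for conjugates, also rose. It was well above background on 4 of 4 SD PB arrays and on no SD control, so no fold is given. Ugt1a6 rose by 0.84 ± 0.165 (its second probe by 0.78) and the bile canalicular pump Abcc2 by 0.75 ± 0.181. The Ugt1a genes have exons in common, so their probes may not tell the members apart. In CAR KO rats none of 9 tested passed by limma (1 at an unadjusted p under 0.05, median 0.18). Abcc3 was not tested there, as 2 of 4 CAR KO PB arrays and no CAR KO control measured it well above background. Of the list, the difference in response between CAR KO and SD rats passed for Abcc3 alone, lower in CAR KO rats (limma, adjusted p = 0.00375). No size is given because the controls of both rat models were at background. Abcc3 entered that test only through the SD PB arrays, where it is high, so no conclusion is drawn from the call.

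In chimeric mice 7 of 10 conjugation and export genes rose on PB and 1 fell, where 19.3% of all genes rose and 23.4% fell. The list's median difference was 0.93, against 0.06 over all genes. Ugt2b1 rose 4.99-fold (2.32 ± 0.142, adjusted p = 4.64e-08), Abcc2 3.53-fold (1.82 ± 0.175) and Abcc3 by 3.46 ± 0.366, measured on 5 of 7 controls. Ugt1a9 rose by 1.21 ± 0.291, with 6 of 7 controls above background. Sult1a1, a sulfotransferase, fell by 0.56 ± 0.118 (adjusted p = 0.00154).

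Among membrane carriers, Slc3a2, the heavy chain that L-type amino acid carriers need, rose by 0.57 ± 0.0809 in SD rats (adjusted p = 0.0014) and by 1.65 ± 0.4 in chimeric mice (adjusted p = 0.00388). In SD rats Slco1a1, an organic anion carrier, fell by 0.3 ± 0.0613 (adjusted p = 0.0148). In all 1 of 8 rose and 1 fell in SD rats, where 4.3% of all genes passed, 0 passed in CAR KO rats by limma (4 at an unadjusted p under 0.05), and 3 rose and 1 fell in chimeric mice. Those 4 of 8 are near the 42.7% of all genes that passed there, and are no result about carriers as a group. The light chain Slc7a8 fell by 1.07 ± 0.127 in chimeric mice, and its response differed from that of SD rats (-0.87 ± 0.199, adjusted p = 0.0029). Slco1b2 rose by 0.55 ± 0.14 and Slco1a4 by 0.49 ± 0.114 there.

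Of 5 tested deiodination genes none passed by limma in SD rats (2 at an unadjusted p under 0.05) or in CAR KO rats (0 at that p). In chimeric mice 2 rose and 1 fell, where 42.7% of all genes passed. Dio3, whose enzyme inactivates the hormone, fell by 1.88 ± 0.302 on PB in chimeric mice (adjusted p = 0.000204). In SD rats its PB level was 0.429 times that of controls (adjusted p = 0.158), where 3 of 4 PB arrays measured it. On control diet Dio3 was higher in chimeric mice than in SD rats by 2.60 ± 0.399 (6.05-fold, adjusted p = 2.01e-06). Sepsecs and Eefsec, which serve selenoprotein synthesis, rose by 0.46 ± 0.134 and 0.38 ± 0.143 in chimeric mice, and the response of Sephs2 differed from that of SD rats by -0.60 ± 0.174 (adjusted p = 0.016).

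Of the 4 plasma carriers none passed by limma in SD or CAR KO rats (0 at an unadjusted p under 0.05 in each), and in chimeric mice, where 23.4% of all genes fell, Alb fell by 0.36 ± 0.119 and Rbp4 by 0.3 ± 0.112. Of 12 receptor partners tested in rats none passed by limma in SD rats (3 at an unadjusted p under 0.05) or CAR KO rats (1 at that p). In chimeric mice 2 of 11 rose and 2 fell, again beside 42.7% of all genes. Among them Tbl1xr1 rose by 0.3 ± 0.0992, Rxrg fell by 0.57 ± 0.167 and Ncoa2 by 0.56 ± 0.159.

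Of 20 hormone-responsive genes tested, 1 rose and 2 fell in SD rats, where 4.3% of all genes passed. Me1, malic enzyme, rose by 1.72 ± 0.349 (adjusted p = 0.013; its second probe by 1.53). Cpt1a, the entry enzyme of fatty acid oxidation, fell by 1.23 ± 0.269 (adjusted p = 0.0204), and Fgf21, a hepatic hormone, fell by 1.33 ± 0.328 (adjusted p = 0.0358). In CAR KO rats 0 of 20 passed by limma (2 at an unadjusted p under 0.05). In chimeric mice 7 rose and 1 fell, where 19.3% of all genes rose and 23.4% fell. The total is near the 42.7% of all genes that passed and so is no result about the list. The balance of rises and falls was not tested. Me1 stood there at 2.53 ± 0.226 and Thrsp, a lipogenic gene, at 1.83 ± 0.416 (limma, adjusted p = 0.00242). The responses of Thrsp (1.90 ± 0.594), Cpt1a (1.23 ± 0.37) and Mlxipl (0.78 ± 0.207) were higher in chimeric mice than in SD rats. The chimeric counts rest on the slides described above, and the lists were not fitted with slide as a block. All these lists were put together with earlier results of these data known.

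On PB 7 of 10 conjugation and export genes were lower in CAR KO than in SD rats by limma's adjusted p and 0 were higher, where 25.1% of all genes were lower and 16.9% higher. The largest differences were those of Ugt2b1 (-4.88 ± 0.404, adjusted p = 5.04e-07) and Abcc3 (-3.99 ± 0.331, measured on 2 of 4 CAR KO arrays). Ugt2b1 was also lower on control diet (-2.36 ± 0.406). Of the responsive genes, Thrsp was lower in chimeric mice than in SD rats by -2.86 ± 0.42 on control diet (adjusted p = 1.02e-06).

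**Figure D4:**
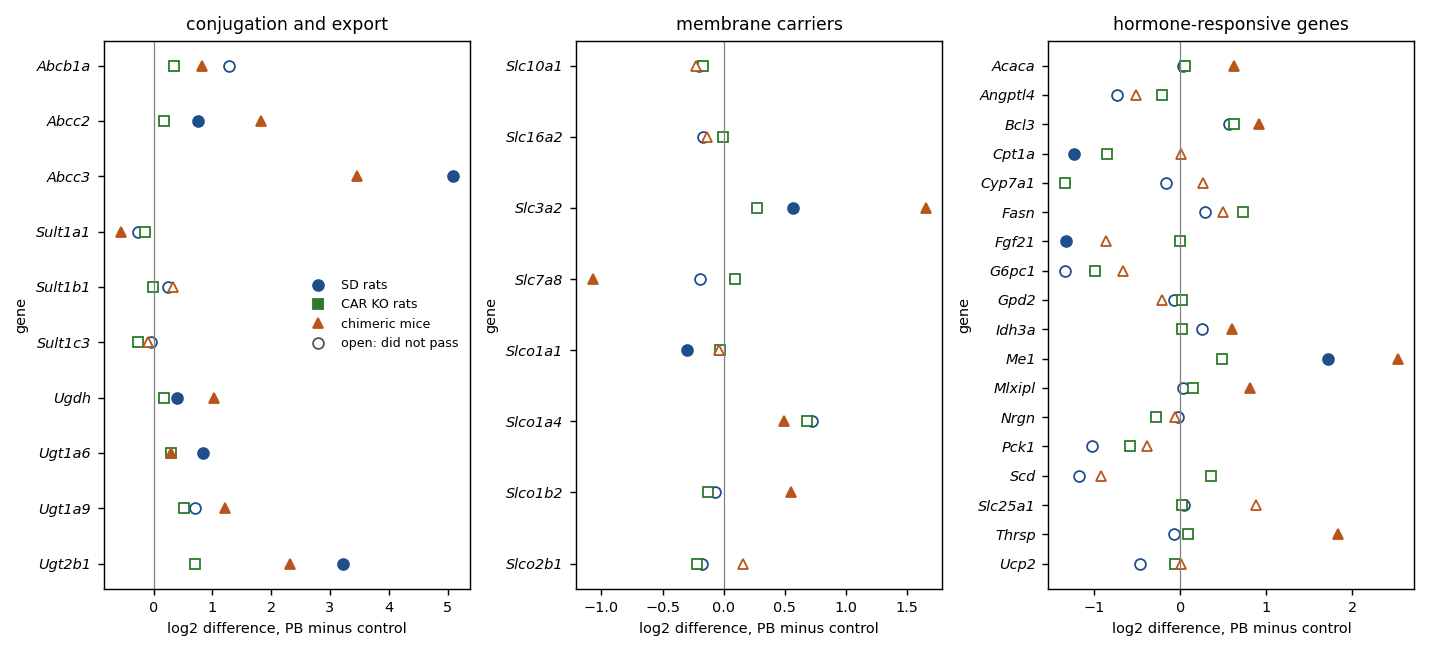
Difference between PB and control diet (log2) for reported genes of conjugation and export, of membrane carriage and of hormone response in SD rats (circles), CAR KO rats (squares) and chimeric mice (triangles). Filled symbols had an adjusted p under 0.05, which in CAR KO rats was 0 genes of these lists, and the SD value of Abcc3 is fitted against controls at background.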

How the data were processed

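Per the labels' protocols, a Low Input Quick Amp kit gave Cy3-labelled RNA from 30 liver samples. It was hybridised to Agilent rat arrays of design 028279, read by Agilent Feature Extraction 10.7.3.1 (protocol GE1_107_Sep09), per the file headers. The deposited intensity values are that software's processed signal, with background removed and no scaling from array to array, as deposited. The authors' series matrix holds log2 values whose scale and centring are not given in the sources used here; each column correlated with log2 of the scanner signal at 1 (rounded) across probes, with column medians from -4.201 to -3.355, and it served as an alternative only.

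Here, 4259 control spots and spots marked as outliers were left out, spots of a probe were averaged, and log2 signal minus each array's 75th percentile was used. No non-control spot was saturated. Of 30367 probes, 18004 were named through RefSeq (GRCr8, names only). The brightest probe over the 16 rat arrays stood for a gene. A gene was tested where well above background on at least 75% of arrays of a compared group. Tests ran in R 4.3.3 with limma 3.58.1, by lmFit and then eBayes, on 16 rat arrays, 14 chimeric arrays, or all 30 for chimeric mice against SD rats, with Benjamini-Hochberg adjustment. The fits were checked on simulated data. All members are named everywhere; of each list, up to 4 of the largest called differences on PB and of the differences in response, and up to 2 between models on 1 diet, were eligible to be named, and not every eligible gene is printed or plotted; some are not reported here. Members and lists were chosen with earlier results of these data known. Normexp used an offset of 50 and the median signal, since the deposited files give that column and not the mean signal the plan named. Alternatives were normalization, background, filter, probe, samples fitted, spread, blocks and leaving out arrays. The number of arrays limits the precision.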

Additional observations from a re-analysis of the deposited data

Results flagged for a closer look

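Of 42 sets of a gene in a group of 4 to 7 arrays, 2 held an array far from the others by Dixon's test at the 95% level, which flags about 1 set in 20 by chance. Thrb on chimeric PB 7 stood at -3.31, while the other 6 chimeric PB arrays lay between -6.03 and -4.94. Crym on CAR KO PB 2 stood at 2.62, while the other 3 lay between 3.18 and 3.28.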

How the results depend on the processing

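The fall of Slc16a10 on PB in SD rats kept its direction in all settings run (-0.89 to -0.58, and -0.99 to -0.69 with 1 array left out), but the count of the 7 genes called there went from 1 to 0 with a replicate block (adjusted p = 0.0761), with only the arrays compared fitted (0.114) and with all 30 arrays in 1 fit (0.191). All genes called in SD rats went from 732 to 315, 186 and 200 in those fits, and to 3523 of 26912 without the filter on dim probes. Between CAR KO and SD rats on control diet the count went from 1 to 2 with normexp and to 0 with only the arrays compared or all arrays fitted. On PB it went from 2 to 3 with normexp, where Ttr passed at -0.15 (limma, adjusted p = 0.0465). It went to 1 without the filter, where Thra had an adjusted p of 0.0518, and to 0 with all arrays fitted. Leaving out 1 array at a time gave counts from 0 to 1 in SD rats and between CAR KO and SD controls, from 1 to 2 between those models on PB, from 4 to 6 between chimeric mice and SD rats on control diet and from 4 to 5 on PB. Counts stayed at 0 for PB in CAR KO rats and chimeric mice. Signs turned for Thrb between chimeric and SD controls under normexp (0.34) and for Ttr on PB under quantile normalization (-0.14, adjusted p = 0.0293), both past the threshold on the new side. Other values changed sign without passing it there, among them the PB difference of Klf9 in chimeric mice (-0.76 to 0.09), the chimeric minus SD responses of Klf9 (-0.39 to 0.46) and Slc16a10 (-0.14 to 0.66), and Ttr and Thrb between CAR KO and SD rats on PB (-0.15 to 0.07 and -0.16 to 0.25). The cause was not tested in any of these cases.

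Correlations of same-numbered arrays ran from -0.13 to 0.079 in SD rats and from -0.28 to 0.12 in CAR KO rats, which shows no clear pairing there. In chimeric mice they ran from -0.22 to 0.79. Chimeric arrays 4, 5 and 6 correlated best with their own number (0.79, 0.51 and 0.3) and the others did not. Whether some chimeric samples were paired is not known. Apart from Slc16a10 in SD rats the replicate block changed no call of these genes. With the block 3 genes in place of 36 were called in CAR KO rats, and 25 in place of 95 between the rat models' responses. In chimeric mice it raised the genes called from 6168 to 7043, and in their response minus that of SD rats from 3254 to 3863. Slide as a block was run for the chimeric PB response and its difference from SD rats (32 genes called in place of 3254), and not for levels between models or within rats, because SD and CAR KO arrays each filled 1 slide. Signal over background limits Thrb most, then Thra on the dimmer chimeric arrays.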
